A study of Oryza sativa Japonica Group with 8 samples.

Results

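The 2 well-watered libraries of this rice leaf series, of 8 libraries in all, were compared with each other: a total RNA library and an mRNA library. Genes entered the comparison when they were in both deposited tables and reached at least 1 FPKM (a fragment count divided by transcript length and by library size) in at least 1 of the 2 libraries, which left 19370 of 27626 shared genes. At the limit, the highest level among the 8256 shared genes left out was 0.9999 FPKM and the lowest among those kept was 1.0002 FPKM. Each gene was described by its FPKM in total RNA, its FPKM in mRNA and the log2 ratio of (FPKM + 1) in total RNA over mRNA. A positive ratio means a higher level in total RNA, and the added 1 shrinks the ratio of genes with low values.

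The plants were japonica rice (Oryza sativa, variety Ilmi), and RNA came from leaves labelled five-week-old, with 3 plants grown per pot in soil in a greenhouse. The 2 libraries were made from plants that kept their water supply, and the other 6 came from plants of the same variety and tissue after 1, 2 or 3 days without water. Each treatment has 1 strand-specific total RNA library and 1 strand-specific mRNA library. Whether one RNA sample, or the same plants, gave both libraries of a treatment is not stated in the labels.

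A total RNA library of this type is made after removal of ribosomal RNA and keeps transcripts with and without a poly(A) tail, while an mRNA library is made from transcripts caught by their poly(A) tail. Most plant nuclear messengers carry such a tail. Chloroplast and mitochondrial messengers mostly lack a stable one, and in these organelles short tails mark RNA for decay. Rice chromosomes also hold many copies of chloroplast and mitochondrial DNA, so reads of organelle transcripts can be placed on nuclear loci.

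With 1 library on each side the watered comparison has no replicate check, so no p-value is given and genes are called by size alone: higher at a ratio of at least 1 and lower at a ratio of at most -1, which is 2-fold on this scale. The drought days give 3 further pairs that share no library with the watered pair, and their ratios stand beside the watered ones as a repeat of the measurement in plants under another treatment. The FPKM of all genes summed to 755487 in total RNA and 716082 in mRNA. Fragment totals were not given, and 17.7% of low values in total RNA and 16.6% in mRNA sat within 0.02 of a whole multiple of the smallest step, so reads could not be recovered and the depth is unknown. Leaf markers were present in both libraries: 22 of 25 green leaf entries reached 1 FPKM in both libraries and summed to 59010 FPKM in total RNA and 52799 in mRNA. Seed markers summed to 29.4 FPKM in total RNA and 43.2 in mRNA with 3 of 14 at 0 in both, the 1 root marker was at 0 in both, and 48 pollen or anther entries summed to 858 FPKM in total RNA and 1329 in mRNA, most of it from the single gene Os11g0167800 with 637 and 1066 FPKM. The part of these other-tissue markers in any result was not tested.

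Genes of photosynthesis made up most of the 10 most abundant genes of each library, beside a metallothionein. The most abundant nuclear gene was a metallothionein, a small metal-binding protein (Os01g0200700, chr1:5478545-5479749 of IRGSP-1.0), with 31845 FPKM in total RNA and 25265 FPKM in mRNA. The main Rubisco small subunit, the nuclear part of the carbon-fixing enzyme (Os12g0291100, chr12:11262587-11263636), had 16319 FPKM in total RNA and 9757 FPKM in mRNA. Each of these genes was thus higher in total RNA by less than the 2-fold limit, with ratios of 0.33 and 0.74.

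A chlorophyll a/b-binding protein of the light-harvesting antenna (Os09g0346500) followed with 11575 FPKM in total RNA and 9893 in mRNA. The photosystem II 10 kDa polypeptide (Os08g0200300) had 8633 FPKM in total RNA and 8809 in mRNA. Rubisco activase, which frees blocked Rubisco sites (Os11g0707000), had 6976 FPKM in total RNA and 6190 in mRNA. These 3 genes lay within 0.23 log2 units of equal levels. Another Rubisco small subunit gene (Os12g0274700) went the other way, with 3538 FPKM in total RNA and 5943 in mRNA, a ratio of -0.75. Near-identical members of this family can share reads, so the split between them is uncertain.

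The total RNA library was more concentrated on few genes. Its 10 most abundant genes held 24.3% of all FPKM, against 11.8% in mRNA, and its 100 most abundant held 43.03%, against 31.9% in mRNA. At least 1 FPKM was reached by 18103 genes in total RNA and 18749 in mRNA, and at least 10 FPKM by 8599 genes in total RNA and 9980 in mRNA. Of the 10 most abundant genes of total RNA, 4 were loci described as chloroplast-encoded proteins and were near absent in mRNA.

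**Figure D1:**
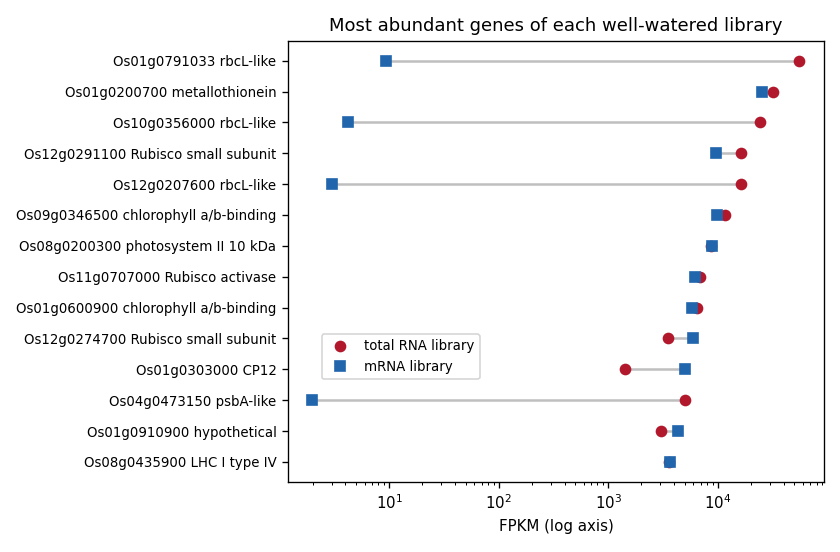
FPKM on a log axis for the genes among the 10 most abundant of either well-watered library, with total RNA as red circles and mRNA as blue squares, 1 library each. The 3 rbcL-like loci and the psbA-like locus stand at 4993 to 55881 FPKM in total RNA and at 2.00 to 9.35 FPKM in mRNA, while the other genes lie within 2-fold of equal levels apart from CP12, at 1425 FPKM in total RNA and 5005 FPKM in mRNA.

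Most genes lay within 2-fold of equal levels. The median ratio over all 19370 genes was -0.18, with quartiles of -0.65 and 0.18 and an SD of 0.82, and 16288 genes (84.1%) lay within 1 log2 unit of 0. Called higher in total RNA were 304 genes (1.57%), and called lower were 2778 (14.3%). The tails differed in shape: 72 genes had a ratio of at least 3 and 17 of at least 8, while 58 had a ratio of at most -3 and 0 of at most -5. The highest ratio was 12.40 and the lowest -4.54. Gene sets are read against the median of -0.18, since a median-ratio scaling of the pair moved that median to -0.02, and leaving out the 10 most abundant genes of each library before scaling moved it to -0.03. The number called higher depended on scaling and on how low values were treated and ranged from 118 to 553 over the alternatives, and the number called lower from 1281 to 3684.

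**Figure D2:**
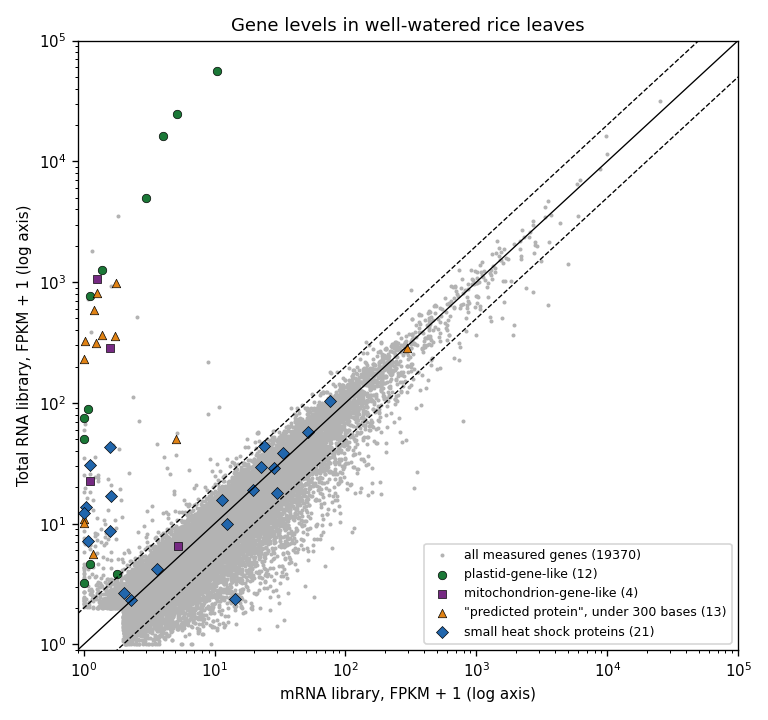
FPKM + 1 of 19370 genes in the total RNA library (vertical, log axis) against the mRNA library (horizontal, log axis) of well-watered leaves; the solid line marks equal levels and the dashed lines 2-fold differences. The cloud follows the line of equal levels, and the plastid-gene-like, mitochondrion-gene-like and short predicted-protein loci sit on the left edge, with up to 55881 FPKM in total RNA and under 10 FPKM in mRNA, apart from the nad2-like locus and the predicted-protein locus Os01g0929100 near the line.

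Loci that resemble chloroplast genes showed the largest differences. The files hold 17 such loci, all placed on the 12 nuclear chromosomes, and the RefSeq table of another rice assembly lists all 11 of the gene symbols concerned on the plastid genome. Of the 17, 12 were measured in both libraries, and 12 of 12 were called higher in total RNA against 1.57% of all genes. Together these 12 held 104040 FPKM in total RNA and 20.02 FPKM in mRNA, which is 13.8% and 0.0028% of all FPKM. Their median ratio was 7.90, and 3 of them were listed at 0 in mRNA. Apart from the rbcL-like Os01g0791033, Os10g0356000 and Os12g0207600 and the psbA-like locus, they had at most 0.78 FPKM in mRNA. Those loci passed the 1 FPKM filter through total RNA alone and could not have been called lower. The share of 12 of 12 beside that of all genes is therefore a description only.

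The Rubisco large subunit, rbcL, is encoded in the chloroplast genome and joins the nuclear small subunit in the enzyme. The rbcL-like locus Os01g0791033 (chr1:33533878-33534687, 810 bases, no intron) had 55881 FPKM in total RNA and 9.35 FPKM in mRNA, the highest level of any gene in total RNA and a ratio of 12.40. Os10g0356000 (chr10:10861205-10862638) had 24600 FPKM in total RNA and 4.20 in mRNA. Os12g0207600 (chr12:5614140-5615573) had 16319 FPKM in total RNA and 3.01 in mRNA. The order of these 3 loci was thus the same in both libraries. Os05g0427800 had 771 FPKM in total RNA and 0.11 in mRNA, and with Os01g0899425, which is only in the total RNA table, the 5 rbcL-like loci made up 97584 FPKM or 12.9% of the total RNA library and 16.7 FPKM of the mRNA library. Copies this alike can share reads, so the level of a single locus is uncertain and the sum is the firmer value. The nuclear small subunit genes, by contrast, summed to 22499 FPKM in total RNA and 17868 in mRNA.

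The gene next to rbcL on the RefSeq plastid genome is atpB, the beta subunit of the chloroplast ATP synthase. An atpB-like locus lies 1031 bases from the rbcL-like locus on chromosome 10 (Os10g0355800), with 1257 FPKM in total RNA and 0.37 in mRNA. The same arrangement occurs on chromosome 12, where Os12g0207500, described as ATP synthase subunit beta, lies 1033 bases from the rbcL-like locus and had 386 FPKM in total RNA and 0.14 in mRNA. In both places the rbcL-like neighbour was the more abundant in total RNA. A further pair, cytochrome b559 subunits alpha and beta of the photosystem II reaction centre (Os03g0659233 and Os03g0659266, 10 bases apart on chromosome 3), had 3507 and 1815 FPKM in total RNA and 0.83 and 0.16 FPKM in mRNA. Their genes, psbE and psbF, are also neighbours on the RefSeq plastid genome.

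The psbA-like locus Os04g0473150, for the photosystem II D1 protein, had 4993 FPKM in total RNA and 2.00 in mRNA. The other measured photosystem II loci of the list were lower in level and ratio than the psbA-like locus. The psbK-like Os11g0592350 had 88.0 FPKM in total RNA and 0.08 in mRNA, and the psbL-like Os03g0667201 had 74.0 FPKM in total RNA and was listed at 0 in mRNA. The psbI-like Os08g0433350 had 3.64 FPKM in total RNA and 0.12 in mRNA, a ratio of 2.05. The ndhB-like Os04g0473025, for a subunit of the chloroplast NADH dehydrogenase-like complex, had 49.2 FPKM in total RNA and was listed at 0 in mRNA. It spans the psbA-like locus by the files' coordinates, mostly with intron, and whether the loci share reads was not tested. The smallest difference among the measured loci was at the ndhK-like Os03g0639233, with 2.84 FPKM in total RNA and 0.78 in mRNA and a ratio of 1.10. The ratio was 0.44 with 5 FPKM in place of 1 as the added value.

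Mitochondrion-like loci showed the same one-sidedness at a lower level. RefSeq lists all 7 symbols concerned on the mitochondrial genome, the files hold 8 loci, and 3 of the 4 measured were called higher in total RNA, against 1.57% of all genes. The cox2-like Os04g0343050 (chr4:16289053-16289534), for a subunit of cytochrome c oxidase, had 1061 FPKM in total RNA and 0.25 in mRNA. The atp6-like Os12g0424180, for the mitochondrial ATP synthase, had 286 FPKM in total RNA and 0.60 in mRNA. The nad9-like Os12g0422971, for respiratory complex I, had 21.3 FPKM in total RNA and 0.12 in mRNA. The exception was the nad2-like Os04g0309100, the longest of the measured loci at 3557 bases, with 5.58 FPKM in total RNA and 4.25 in mRNA and a ratio of 0.33. The 4 loci summed to 1374 FPKM in total RNA and 5.22 in mRNA. The 3 higher loci had under 1 FPKM in mRNA, so each passed the filter through total RNA alone. Their share beside that of all genes is a description only. A ribosomal protein S7-like locus on chromosome 12 (Os12g0524750), in neither list, had 726 FPKM in total RNA and 0.07 in mRNA.

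The organelle-like ratios recurred on each drought day. Of the 12 measured plastid-gene-like loci, 12, 11 and 11 had a ratio of at least 1 on days 1, 2 and 3, and the exception on days 2 and 3, the psbI-like Os08g0433350, also stayed above 0. Of the 4 mitochondrion-like loci, 3 had a ratio of at least 1 on each day. The share of all 17 plastid-gene-like loci in the total RNA libraries was 13.8% in watered leaves, 10.1% on day 1, 6.84% on day 2 and 1.63% on day 3. For Os01g0791033 the ratios were 12.40, 12.12, 11.81 and 9.13 in the same order, and for the psbA-like locus they were 10.70, 11.04, 10.41 and 10.37. In total RNA Os01g0791033 stood at 55881, 37158, 25951 and 4174 FPKM from watered to day 3, and the psbA-like locus at 4993, 4874, 2902 and 3597 FPKM. The rbcL-like level in total RNA was thus lower with each day without water, while the psbA-like level was not. In bulk leaves, fewer cells or chloroplasts and less RNA in each cannot be told apart. The cox2-like ratio was 9.72, 9.57, 8.71 and 9.48.

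**Figure D3:**
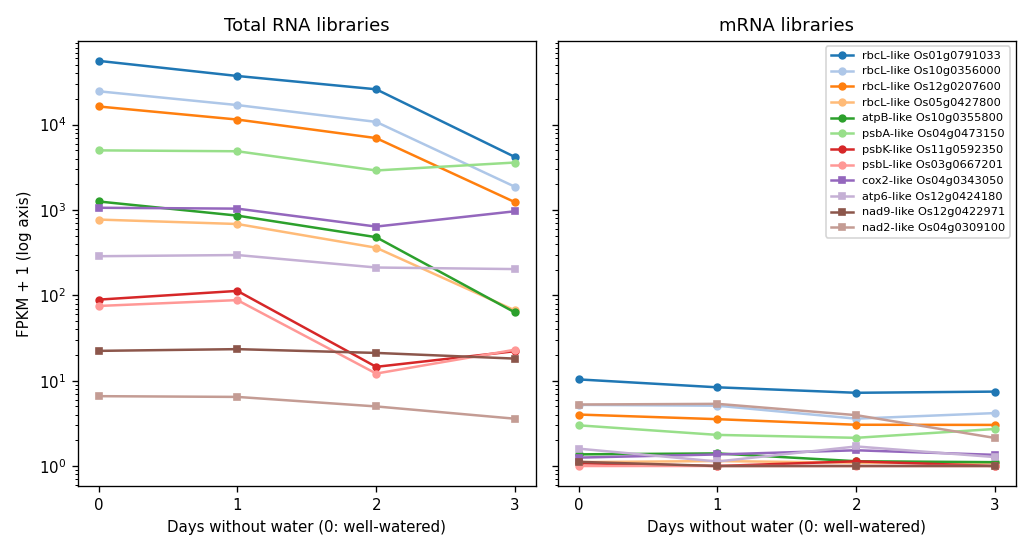
FPKM + 1 (log axis) of 12 organelle-like loci in the 4 total RNA libraries (left) and the 4 mRNA libraries (right), by days without water, with 0 for well-watered; circles are plastid-gene-like, squares mitochondrion-gene-like, 1 library per point. In watered leaves the rbcL-like loci run from 771 to 55881 FPKM on the left and from 0.11 to 9.35 FPKM on the right.

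A group of short loci described only as similar to a predicted protein behaved like the organelle-like loci. It was noticed in the values and is given as a description. Of 13 such loci of 186 to 291 bases, on 5 chromosomes, 12 were called higher in total RNA, against 1.57% of all genes. Among all genes under 300 bases, these 12 included, the share was 23.8%. The median ratio over the 13 was 7.85. The 12 had 0 to 4.05 FPKM in mRNA, and those under 1 FPKM there passed the filter through total RNA alone. Os06g0163450 had 989 FPKM in total RNA and 0.77 in mRNA. Os07g0595750 had 809 FPKM in total RNA and 0.27 in mRNA, and Os01g0666101 had 592 FPKM in total RNA and 0.20 in mRNA. The files say nothing of what these loci encode. The exception, Os01g0929100, had 284 FPKM in total RNA and 293 in mRNA. On the drought days the 12 kept ratios of at least 3.44, 2.18 and 2.75 on days 1, 2 and 3. Of 359 loci of at least 300 bases with the same description, 4 were called higher and 44 lower.

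Several nuclear genes with a function were also detected almost only in total RNA. Among the 72 genes with a ratio of at least 3, 12 were in the organelle-like lists, 11 were short predicted-protein loci, 9 were noncoding, 16 were hypothetical, 5 were small heat shock proteins and 19 had another description. Of all 19370 measured genes, 393 were noncoding and 4323 were in the list of hypothetical proteins. The 16 could also include longer loci described as similar to a predicted protein, of which 359 were measured. The 19 included the cytochrome b559 pair, Os12g0207500 and the S7-like locus above. These lie outside the organelle-like lists, so the 12 listed are not all loci of that kind. Os06g0120732, similar to an ATP synthase beta fragment, and loci similar to ribosomal proteins L2 and S18 were also among the 19, without introns. Of the 19, 11 contained introns. Among them, all named after their values were seen, were Os04g0223300, a peroxisome-type ascorbate peroxidase that removes hydrogen peroxide, with 40.5 FPKM in total RNA and 0.85 in mRNA, and Os01g0139000, a reticulon family membrane protein, with 44.0 FPKM in total RNA and 0.67 in mRNA. Sucrose synthase, which splits sucrose for use in growth and storage, appeared at Os04g0309600 with 23.2 FPKM in total RNA and 0.23 in mRNA and at Os02g0831500 with 14.7 FPKM in total RNA and 0.17 in mRNA. Os04g0249500, also among the 11, has the same length (2814 bases) and intron bases (2385) as Os04g0309600. Whether these loci share reads was not tested. A cytoplasmic malate dehydrogenase-like gene (Os04g0551200) had 17.1 FPKM in total RNA and was listed at 0 in mRNA. All 11 were also called higher on each of the 3 drought days, and 9, 10 and 8 of them kept a ratio of at least 3 on days 1, 2 and 3.

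Small heat shock proteins, chaperones of the alpha-crystallin type, were split in the same way. Of 21 measured members, 7 were called higher in total RNA and 1 lower, against 1.57% and 14.3% of all genes, and the whole list of 120 heat shock genes had 8 higher and 14 lower with a median ratio of 0.02. Os03g0656100 had 41.8 FPKM in total RNA and 0.58 in mRNA. Os03g0157600 had 29.5 FPKM in total RNA and 0.11 in mRNA, and Os01g0588000 had 11.4 FPKM in total RNA and was listed at 0 in mRNA. A more abundant member, Os01g0135900, had 103 FPKM in total RNA and 75.4 in mRNA, a ratio of 0.45. One member went the other way: Os02g0128000 had 1.38 FPKM in total RNA and 13.2 in mRNA. The 7 higher members had ratios of 2.43 to 4.78 in watered leaves and 1.95 to 4.19 on day 3. These 7 had 0 to 0.63 FPKM in mRNA, so each passed the 1 FPKM filter through total RNA alone. The set was put together after its values were seen, so its share beside that of all genes is a description only.

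Genes called lower in total RNA were many and their differences moderate. The described gene with the lowest ratio was Os02g0752800 (chr2:31648754-31650407), similar to DREB2B, a transcription factor that binds drought-response promoters, with 18.8 FPKM in total RNA and 332 FPKM in mRNA and a ratio of -4.07. Its ratio was -3.81, -3.90 and -2.67 on days 1, 2 and 3. Os03g0655400 (similar to LIP5) had 69.5 FPKM in total RNA and 796 in mRNA, a ratio of -3.50. Os02g0726600, related to the chloroplast import protein Tic20, had 17.2 FPKM in total RNA and 158 in mRNA. Each of these kept a ratio under -1 on all 3 drought days. The lowest ratio of all genes was that of the hypothetical protein Os11g0485500 with 1.47 FPKM in total RNA and 56.2 in mRNA. Of the 58 genes at -3 or below, 34 were hypothetical and 4 noncoding, and 49 were at -1 or below on all 3 drought days as well. Of all 19370 measured genes, 4323 were in the list of hypothetical proteins and 393 were noncoding.

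Of 94 genes with at least 1000 FPKM in a library, 8 were called higher (8.51%) and 11 lower (11.7%), against 1.57% and 14.3% of all genes. The share lower was thus near that of all genes. All 8 higher ones were organelle-like: 3 rbcL-like, psbA-like, atpB-like, the 2 cytochrome b559 subunits and the cox2-like locus. The 11 lower ones were nuclear. The light-regulated Lir1 gene Os01g0102900 had 644 FPKM in total RNA and 3543 in mRNA, a ratio of -2.46. CP12 (Os01g0303000), which ties Calvin cycle enzymes together in the dark, had 1425 FPKM in total RNA and 5005 in mRNA. A P subunit gene of glycine decarboxylase, the photorespiration enzyme (Os06g0611900), had 362 FPKM in total RNA and 1893 in mRNA. Catalase (Os03g0131200), which destroys hydrogen peroxide, had 438 FPKM in total RNA and 1927 in mRNA. Chloroplast carbonic anhydrase (Os01g0639900) had 830 FPKM in total RNA and 2723 in mRNA. The other 6, among them a photosystem I subunit VI and the antenna protein ASCAB9, had ratios between -1.06 and -1.65.

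Gene lists set by function were described by their medians. Of 44 lists, the 2 of organelle-like loci had medians above 1, and the other 42 lay between -0.67 and 0.23. Chlorophyll a/b-binding proteins had a median of 0.01 with 0 of 15 called either way, and summed to 36505 FPKM in total RNA and 34732 in mRNA. Nuclear photosystem subunits had a median of -0.03 with 1 of 39 lower. Calvin cycle enzymes had a median of 0.12 with 0 of 15 called. Metallothioneins had a median of 0.07 with 0 of 9 called. The lists go by the wording of the file descriptions and leave out some genes of photosynthesis called lower above, among them ASCAB9, the photosystem I subunit VI, CP12 and carbonic anhydrase. Their counts, against 14.3% of all genes called lower, therefore hold for the listed genes alone. The medians of these lists lay above the median of -0.18 for all genes. Without the 10 most abundant genes of each library, the chlorophyll a/b-binding list lay below it instead, at -0.11 against -0.03 for all genes.

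Lists of protein synthesis and RNA processing genes are read against 14.3% of all genes called lower. Plastid ribosomal proteins had 17 of 57 members called lower (29.8%) and a median of -0.55, the lowest being the 50S ribosomal protein L28 (Os05g0101400) with 16.8 FPKM in total RNA and 118 in mRNA. Cytosolic ribosomal proteins had 13 of 169 lower (7.69%) and a median of 0.02. Mitochondrial ribosomal proteins had 0 of 9 lower and a median of 0.11. Pentatricopeptide repeat proteins, which process organelle RNA, had 49 of 277 lower (17.7%), a share near that of all genes, with 1 higher and a median of -0.40. Splicing factors and snRNP proteins had 22 of 89 lower (24.7%), and nuclear respiratory chain genes 10 of 41 (24.4%). No test was made between these lists, and their shares are descriptions of 1 library pair.

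Clock genes had the lowest median of any list, -0.67, with 3 of 8 called lower, against 14.3% of all genes. GIGANTEA (Os01g0182600), a large clock protein that also controls flowering, had 194 FPKM in total RNA and 529 in mRNA. PRR1 (Os02g0618200), a pseudo-response regulator of the clock core, had 14.0 FPKM in total RNA and 33.5 in mRNA, and PRR95 (Os09g0532400) had 125 FPKM in total RNA and 266 in mRNA. The highest member, ELF3-1 (Os06g0142600), had 51.9 FPKM in total RNA and 47.9 in mRNA. The list median was -0.45 on day 1, -0.53 on day 2 and -0.21 on day 3, so it stood below the median of all genes on each day. Whether the plants of the 2 libraries were sampled at the same hour is not given in the labels.

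Among histones, 7 of 40 measured genes (17.5%) were called lower in total RNA, a share near the 14.3% of all genes. Of 10 H4 genes 5 were lower, with a median of -0.85. The lowest, Os10g0539500, had 46.2 FPKM in total RNA and 269 in mRNA, and Os09g0553100 had 56.8 FPKM in total RNA and 261 in mRNA. Of 12 H2B genes 2 were lower, and 0 of 10 H2A, 0 of 5 H3 and 0 of 3 H1 genes were called, and no test was made between types. The most abundant histone, the H1 gene Os04g0253000, had 975 FPKM in total RNA and 998 in mRNA. Plant histone messengers, unlike most of those in animals, carry a poly(A) tail. Histone genes of a type are near-identical in their coding part and can share reads, so values of single genes are uncertain.

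Photorespiration genes, which recycle the product of the Rubisco oxygenase reaction, summed to 5693 FPKM in total RNA and 8037 FPKM in mRNA, with 2 of 14 lower, the same share as the 14.3% of all genes. Beside the P subunit of glycine decarboxylase given above, the lower member was a glycolate oxidase, Os08g0198700, with 45.3 FPKM in total RNA and 169 in mRNA. The main glycolate oxidase, Os03g0786100, had 1882 FPKM in total RNA and 1622 in mRNA. Members of the pathway thus stood on both sides of equal levels. The T subunit of glycine decarboxylase (Os04g0623800) had 526 FPKM in total RNA and 538 in mRNA, and serine hydroxymethyltransferase (Os03g0738400) had 1015 FPKM in total RNA and 1853 in mRNA.

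Genes often used as references in rice expression work differed little as a list but not as single genes. Elongation factor 1-alpha (Os03g0177500) had 292 FPKM in total RNA and 238 in mRNA. A ubiquitin gene (Os06g0681400) had 1073 FPKM in total RNA and 1016 in mRNA. Actin 1 (Os03g0718100) had 18.2 FPKM in total RNA and 36.3 in mRNA, with a ratio of -0.96 close to the call limit.

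Proteins with no assigned function made up the largest list. Of 4323 measured hypothetical proteins, 101 were called higher (2.34%) and 952 lower (22.0%), against 1.57% and 14.3% of all genes, and these 4323 summed to 72519 FPKM in total RNA and 90076 in mRNA. The one with the highest ratio, Os01g0899387, had 925 FPKM in total RNA and 0.62 in mRNA. Its identifier falls between those of the atp9-like Os01g0899350 and the rbcL-like Os01g0899425, and whether it is organelle-like was not tested. Kinases, by comparison, had 6 of 503 higher and 33 lower (6.56%), and F-box proteins 0 of 194 higher and 36 lower (18.6%).

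Transcription factor lists differed in their shares of lower calls, from 5.56% for NAC factors to 22.2% for B-box and CCT factors, against 14.3% of all genes. AP2/ERF factors had 5 of 43 lower and a median of 0.06, although they include the DREB2B-like gene above. WRKY factors had 7 of 51 lower and 1 higher, NAC factors 2 of 36 lower and 1 higher, bHLH factors 5 of 57 lower and MYB and SANT factors 19 of 119 lower. B-box and CCT factors, many of them light and flowering regulators, had 2 of 27 higher and 6 lower. The CONSTANS-like Os03g0711100 was the highest of them, with 321 FPKM in total RNA and 142 in mRNA and ratios of 1.17, 1.22, 1.16 and 1.16 from watered to day 3. Cytochrome P450 genes had 2 of 129 lower (1.55%) and a median of 0.15, and NB-ARC resistance genes 11 of 164 lower with 3 higher. Genes with the file description of a UDP-glycosyltransferase family had a median of 0.34 and 0 of 59 called. At the other end, VQ domain proteins had 7 of 13 lower and a median of -1.08, and mitochondrial transcription termination factor-related proteins 11 of 24 lower and a median of -0.96. These last 3 groups were picked from 129 descriptions by their medians.

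**Figure D4:**
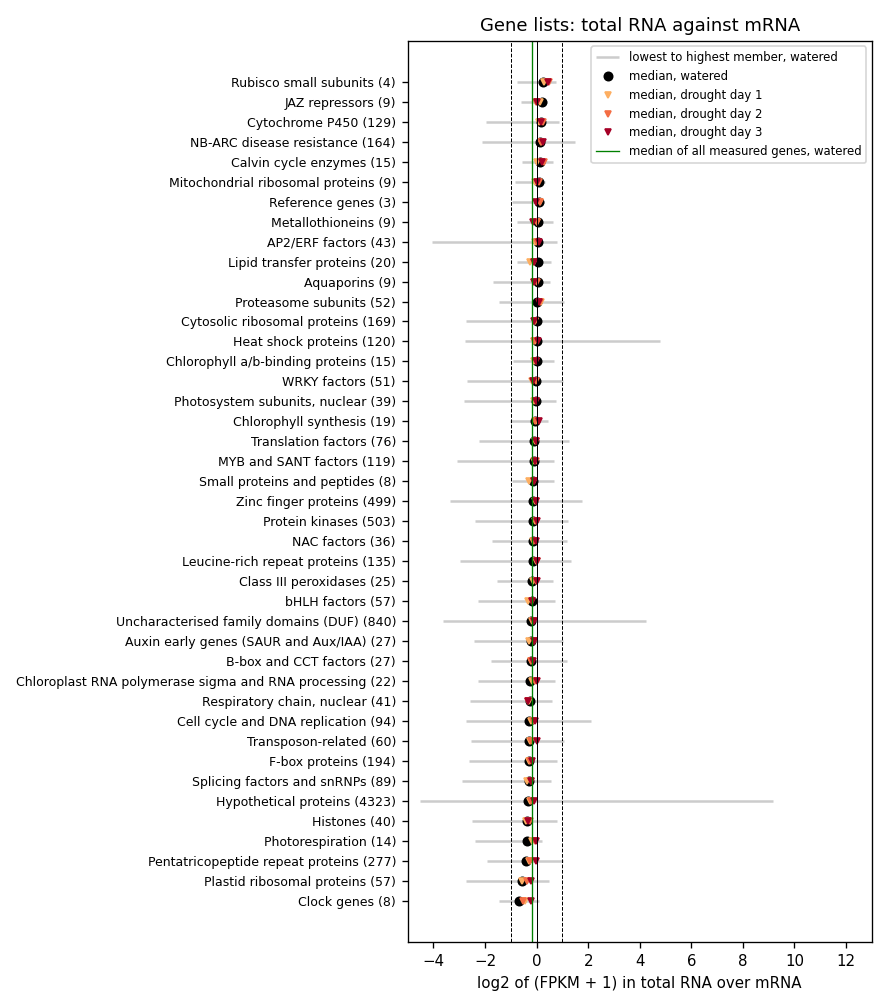
Log2 ratio of (FPKM + 1) in total RNA over mRNA for 42 gene lists, with the number of measured genes in brackets; black circles are list medians in well-watered leaves, triangles the medians on drought days 1 to 3, grey bars the range of members in watered leaves, dashed lines the call limits and the green line the median of all genes at -0.18. Medians run from -0.67 for clock genes to 0.23 for Rubisco small subunits, and each end of a bar is set by a single gene.

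The share of genes called higher was largest among the shortest transcripts. Under 300 bases, 46 of 193 genes were called higher (23.8%), and the median ratio of the 193 was 0.19. The 46 include the 12 higher short predicted-protein loci, both cytochrome b559 loci and the psbI-, psbK- and psbL-like loci. Higher noncoding genes fell from 50 to 37 without genes under 300 bases. The part of length apart from these groups was not tested. The share higher was 4.42% from 300 to under 600 bases, 2.16% from 600 to under 1000, 1.24% from 1000 to under 1500, 0.674% from 1500 to under 2500, 0.818% from 2500 to under 4000 and 0.820% from 4000. The share lower stayed between 13.01% and 15.9% in every length class. The higher genes had a median length of 827 bases, the lower genes 1449 and all measured genes 1486.5. Without genes under 300 bases, an alternative added after seeing the data, 258 genes were called higher and 2749 lower.

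Genes without an intron in the listed transcript were more often called in both directions. Of 3836 such genes, 4.82% were higher and 19.5% lower in total RNA, against 0.766% and 13.1% of 15534 genes with an intron. Intronless genes made up 60.9% of the higher genes, 27.0% of the lower genes and 19.8% of all measured genes. Within the class under 300 bases, 43 of 163 intronless genes (26.4%) and 3 of 30 genes with an intron were higher. Length and intron content go together in this annotation, and their separate parts were not tested.

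**Figure D5:**
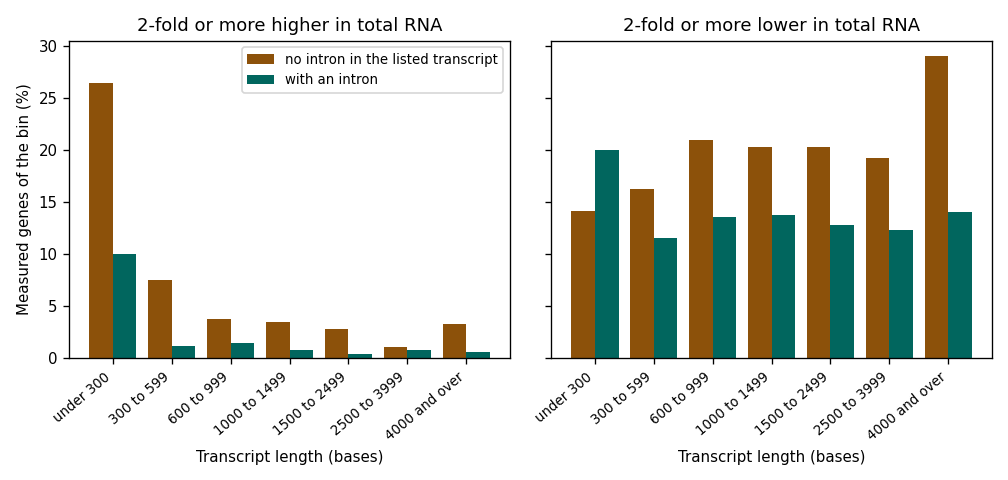
Percentage of measured genes called at least 2-fold higher (left) and at least 2-fold lower (right) in total RNA than in mRNA of watered leaves, by transcript length, for genes without an intron (brown) and with an intron (green). For intronless genes the left bars stand at 26.4% under 300 bases, at 1.03% from 2500 to under 4000 bases and at 3.23% (1 of 31 genes) from 4000 bases, and the right bars at 14.1%, 19.2% and 29.0% (9 of 31 genes) in the same classes.

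The share of calls differed with the level of a gene, taken as its higher value in the 2 libraries. The added 1 FPKM bears on this, since a gene just over 1 FPKM could be called only with its other value near 0. Shares in the lowest class are thus limited by the formula. With 0.1 FPKM added instead, the lower calls over all levels went from 2778 to 3684. From 1 to under 5 FPKM, 110 of 5368 genes were called higher (2.05%) and 498 lower (9.28%). From 5 to under 20 FPKM, 16.8% of 7472 genes were lower, and from 20 to under 100 FPKM 16.2% of 5462. From 100 to under 1000 FPKM, 13.2% of 974 genes were lower. The genes called higher had a median of 8.41 FPKM in total RNA and 0.55 in mRNA, and those called lower 3.82 FPKM in total RNA and 13.9 in mRNA. The median of all measured genes was 8.19 FPKM in total RNA and 10.5 in mRNA.

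Called genes also lay near each other in places. Of the 304 higher genes, 31 (10.2%) had another higher gene within 10000 bases, while 2.80% of all measured genes had a higher gene that near. For lower genes the shares were 26.2% of the called genes and 21.1% of all. The atpB-like, rbcL-like and cytochrome b559 loci above are among the close pairs of higher genes.

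Noncoding genes were called higher more often than coding genes by share, while the shares called lower were alike. Of 393 measured noncoding genes, 50 (12.7%) were higher and 59 (15.0%) lower, against 254 (1.34%) and 2719 (14.3%) of 18977 coding genes. Their median ratio was -0.12. On all 3 drought days 20 of the 50 were again higher and 18 of the 59 again lower. The noncoding counts moved with the settings, to 15 to 79 higher and 17 to 90 lower.

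The noncoding gene with the highest ratio was Os02g0618000, with 58.4 FPKM in total RNA and listed at 0 in mRNA. Os05g0152366 had 110 FPKM in total RNA and 1.39 in mRNA, with a ratio of 5.54, and Os12g0124300 had 69.8 FPKM in total RNA and 1.66 in mRNA, with a ratio of 4.73. These 2 had ratios of 5.95 and 6.24 on day 3. Others did not recur: Os02g0257400 had 18.6 FPKM in total RNA and 0.03 in mRNA, but ratios of 0.01, -0.04 and 0.05 on the 3 drought days. The noncoding gene with the lowest ratio, Os02g0330601, had 0.35 FPKM in total RNA and 21.0 in mRNA, and Os06g0477600 had 2.70 FPKM in total RNA and 31.2 in mRNA.

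Noncoding genes were also split by their distance to coding genes, against 12.7% of all noncoding genes called higher and 15.0% lower. Noncoding genes that overlap a coding gene had 16 of 96 higher and 12 lower, those within 2000 bases of one 26 of 169 higher and 14 lower, and those farther away 8 of 128 higher and 33 lower. Of the 50 higher noncoding genes, 49 had a nearest coding gene with a ratio, of which 0 were higher and 2 lower. For the 59 lower ones, 56 had one, of which 11 were lower and 0 higher. Of all measured coding genes, 1.34% were higher and 14.3% lower. The 2 of 49 lower neighbours were fewer than that share, and the 11 of 56 somewhat more. No test was made. Some neighbours of noncoding genes had a ratio of exactly 0, so genes under the 1 FPKM limit may be among them. Such genes could not reach a 2-fold call, so the neighbour shares and those of all measured coding genes may rest on unlike sets. The strand setting of the counting is not given, so for overlapping genes reads of the pair cannot be told apart.

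Some genes were listed at 0 in the total RNA library, 22 in all, against 48 listed at 0 in mRNA. The most abundant of the 22 was Os10g0482066 with 8.38 FPKM in mRNA. Os07g0173700, described as 40S ribosomal protein S18, had 5.60 FPKM in mRNA and was listed at 0 in total RNA, but its ratio was 3.34, 0.01 and 2.73 on days 1, 2 and 3. Near-identical ribosomal protein genes can share reads, so this locus is uncertain. Levels of the 22 were thus low in the mRNA library, where the most abundant gene stood at 25265 FPKM.

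The watered calls recurred in part under drought, and the share of lower calls that recurred was smallest on day 3. Of the 304 higher genes, 205, 194 and 175 were higher on days 1, 2 and 3, where 1.69%, 1.54% and 1.61% of the same 19370 genes were called, and 158 (52.0%) were higher on all 3 days. Of the 2778 lower genes, 2104, 1946 and 909 were lower on days 1, 2 and 3, where 12.6%, 11.6% and 5.37% of genes were called, and 831 (29.9%) were lower on all 3 days. Across genes, Pearson's r between the watered ratio and the ratio on days 1, 2 and 3 was 0.93, 0.92 and 0.83. This is a description over 19370 genes that share gene models and are not independent. Not called the same way on any drought day were 75 higher and 465 lower genes, and 2 of each had an opposite call on at least 1 day. Over all watered calls, 4 higher and 3 lower genes had an opposite call on at least 1 drought day.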

How the data were processed

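Values came from 8 rice leaf libraries, of which the 2 well-watered ones carry the main comparison. The authors deposited FPKM per transcript in 1 table for each library kind, per the file headers. Per the submitters' processing notes, the build was IRGSP-1.0 and the tools were StringTie 1.3.3b, HISAT2 2.0.5, Bowtie2 2.2.6, Trimmomatic 0.32 and FastQC 0.10.0, with no roles given. Strand setting, read depth and the handling of reads with several places are not given in the sources used here. The tables hold 36538 transcripts of 30263 genes for total RNA and 34770 transcripts of 28506 genes for mRNA, all on chromosomes 1 to 12.

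FPKM was summed over the transcripts of a gene, genes under 1 FPKM in both watered libraries were left out, and log2 ratios were taken of FPKM + 1. Genes were called at 2-fold, with no test, since each group holds 1 library. Python 3.11.15, pandas 2.3.3 and numpy 2.4.6 were used, and the calculation was tested on simulated data. There the size rule called 17 of 66 genes simulated at 2-fold, 61 of 67 at 4-fold and 65 of 67 at 8-fold. It called 0 of 19170 genes simulated without a difference. Most genes simulated at the 2-fold limit were thus missed. Alternatives were added values of 0.1 and 5 FPKM, other filters, 3 scalings, the most abundant transcript per gene, and limma 3.58.1 in R 4.3.3 with treatment as a term over the 4 library pairs (2-fold and a Benjamini-Hochberg adjusted p under 0.05, with 3 residual degrees of freedom). A filter of at least 300 bases was chosen after seeing the data. RefSeq names of another assembly were used only to look up which gene symbols lie on organelle genomes. It matched 1 gene identifier.

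The members, the 44 gene lists and the rule for named genes were chosen with earlier results of these data known. The rule takes the 10 most abundant genes per library, the 12 highest and 12 lowest described genes and the 8 highest and 8 lowest noncoding genes at 5 FPKM or more, the most abundant, highest and lowest members of each list, and the 5 most abundant genes listed at 0 in the other library. Other genes named, among them genes over 1000 FPKM that were called, further members of lists and the short predicted-protein and small heat shock loci, were chosen after their values were seen.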

Additional observations from a re-analysis of the deposited data

Results flagged for a closer look

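The noncoding gene Os01g0106750 (338 bases) went one way in watered leaves and the other under drought. It had 4.59 FPKM in total RNA and 0.22 FPKM in mRNA in watered leaves, a ratio of 2.19, while its ratios on days 1, 2 and 3 were -1.05, -1.15 and -1.39. Each pair is 1 library of each kind, and the difference between pairs was not tested.

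Genes with an entry in 1 table alone stand outside the comparison. There were 2637 in the total RNA table, of which 15 reached 1 FPKM in the watered library. The highest were Os02g0668350 with 32.7 FPKM, the predicted-protein locus Os02g0808601 with 29.6 FPKM and Os12g0424300 with 14.5 FPKM, and the rbcL-like Os01g0899425, the atp9-like Os01g0899275 and the nad3-like Os12g0423142 were also among them, with 13.8, 3.93 and 2.69 FPKM. In the mRNA table there were 880 such genes, of which 6 reached 1 FPKM, the highest being Os04g0693200 with 2.12 FPKM.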

How the results depend on the processing

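Counts of calls moved with the treatment of low values and with scaling. The 304 higher genes became 553 with 0.1 FPKM added and 137 with 5 FPKM added, 194 with a filter of 5 FPKM, 118 with 1 FPKM required in both libraries and 534 without the 10 most abundant genes of each library. The 2778 lower genes became 1281 with 5 FPKM added. The 50 higher noncoding genes became 79 and 15 with 0.1 and 5 FPKM added, 26 with the 5 FPKM filter, 15 with 1 FPKM in both and 29 in limma. The 59 lower noncoding genes became 90, 17, 39, 35 and 34 in the same order. All other settings kept each of these 4 counts within 1.5 times. The cause was not tested, beyond that added values and filters act on low genes by construction.

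Of 51 medians of gene lists and length classes, 45 moved under median-ratio scaling, 45 without the 10 most abundant genes, 28 with no filter, 23 scaled to a fixed sum, 21 with 5 FPKM added and 11 with each stricter filter. The sign changed for 10, 9, 9, 7, 0 and 5 (each filter) of them. Set against the median of all genes under the same setting, 3, 4, 6, 0, 1 and 2 (1 FPKM in both) or 6 (5 FPKM) changed side.

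The limma fit over the 4 pairs called 246 genes higher and 1991 lower in total RNA. It pairs the libraries by treatment and includes the watered pair, so its calls and the watered calls share libraries. A block by replicate number could not be fitted, since the labels carry none. The depth is unknown, so differences at low FPKM have no counting interval, and loci that share reads were not separated.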
